A study of Homo sapiens with 12 samples.

Results

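A set of 8 genes with less RNA in A549 cells that carried an HA-AHR construct than in cells that carried an empty vector was examined in depth: CPLX2, RTN4RL2, SVEP1, DCDC2, MTUS1, SUSD2, TCIM and NTS. These 8 of the 60623 genes in the count table were chosen by their measured levels, namely that they were lower in the WT, SA and SD lines than in V, so the differences from V are given as a description and carry no test. All 8 passed the filter on low counts in every comparison. No gene was absent from any library. The AHR lines kept between 17.2% of the V mean (NTS in SA cells) and 83.0% (SUSD2 in SD cells), so the genes were lower rather than lost, and MTUS1, TCIM and SUSD2 were lower by less than a log2 fold change of 1 in each AHR line.

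A549 is an established human lung adenocarcinoma line. Poly(A)-enriched RNA of 4 derived lines was sequenced, with 3 biological replicates of each line, to ask what phosphorylation of the aryl hydrocarbon receptor (AHR) at S489 changes. V cells were infected with lentivirus from the empty vector pLV-EF1a-IRES-Hygro, WT cells with HA-tagged wild-type AHR, SA cells with HA-AHR S489A, which cannot be phosphorylated at that residue, and SD cells with HA-AHR S489D, which mimics phosphorylation. All 4 lines were selected with hygromycin and all kept their own AHR gene. Each construct was carried by 1 line, so what the construct did and what else set the lines apart cannot be told apart, and the 3 comparisons with V share the same 3 V libraries.

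AHR is a ligand-activated transcription factor that pairs with ARNT in the nucleus and binds response elements whose core is GCGTG, as in the control of the CYP1 genes. The genes described here do not form a known pathway. NTS encodes the precursor of neurotensin, a secreted peptide that acts through G protein-coupled receptors and is made by some lung tumours, and the others encode extracellular or cell surface proteins (SVEP1, RTN4RL2, SUSD2), a regulator of vesicle fusion (CPLX2), microtubule-binding proteins (DCDC2, MTUS1) and a small regulator of Wnt signalling (TCIM).

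The RefSeq promoter sequences of the set (build GRCh38.p14) covered 3 of the 8 genes, CPLX2, DCDC2 and NTS. The 250 bases upstream of the RefSeq start are shown for NTS, which had the deepest difference, and for DCDC2, with an AHR core match. Sequence further upstream was not searched, so the windows do not show what the promoters lack. RTN4RL2, SVEP1, MTUS1, SUSD2 and TCIM are named only. Most of the CPLX2 window lies in an annotated 5′ UTR of that gene and is not shown. Letters in capitals mark the matches to the motifs described next. The NTS window is chr12:85874045-85874294 on the plus strand, and the DCDC2 window is chr6:24358060-24358309 on the minus strand, where it also overlaps the exon of KAAG1, a long non-coding RNA gene of the opposite strand.
NTS: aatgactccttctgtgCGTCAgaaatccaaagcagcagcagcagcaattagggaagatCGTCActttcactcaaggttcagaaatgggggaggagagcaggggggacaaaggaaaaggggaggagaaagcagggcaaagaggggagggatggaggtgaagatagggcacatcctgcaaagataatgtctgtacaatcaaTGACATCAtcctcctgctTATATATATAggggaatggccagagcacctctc
DCDC2: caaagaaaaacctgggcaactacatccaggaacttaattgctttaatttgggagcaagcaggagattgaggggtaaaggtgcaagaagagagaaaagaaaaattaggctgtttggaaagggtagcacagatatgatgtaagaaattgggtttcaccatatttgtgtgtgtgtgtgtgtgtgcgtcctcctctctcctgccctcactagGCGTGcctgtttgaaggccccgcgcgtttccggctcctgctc

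On both strands of these windows, 7 motifs chosen by hand were searched: the AHR core GCGTG, the start of the cAMP response element TGACG, a related octamer, TGACNTCA, which can overlap it, the AP-1 site TGANTCA, the TATA box TATAAA, the repeat TATATATA and the GC box GGGCGG. DCDC2 held 1 match, GCGTG on its own strand with the first letter 42 bases before the start, a string found in 32.2% of the 35116 promoter windows of the same length. NTS held no GCGTG. Its window had TGACNTCA 51 bases before the start, as in 6.87% of windows, overlapping matches to TATATATA 33 and 31 bases before the start, as in 0.533% of windows, and 2 reverse-strand matches to TGACG, as in 21.2%. None of the 7 motifs was found in the CPLX2 window. AP-1 sites were present in 6.57% of all windows, TATAAA in 10.7% and GC boxes in 42.6%, and these letters occurred in none of the 3 windows of the set. GC content was 49.2% for NTS, 47.6% for DCDC2 and 56.8% for CPLX2, against a median of 58% over all windows, and the CpG ratio (observed over expected) was 0.141, 0.437 and 0.298 against a median of 0.558. These matches describe letters only, and binding was not measured.

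The libraries held 7844045 to 11765576 expected counts each, with normalisation factors between 0.993 and 1.005, so levels are given as CPM, the counts of a gene scaled to the size of its library after TMM normalisation. The targeted gene followed the labels: AHR averaged 69.1 ± 4.51 CPM (SD, n = 3) in V cells, and the WT, SA and SD cells were at 266 ± 28.3, 223 ± 5.87 and 210 ± 9.14 CPM, and ENSG00000283321, a gene that overlaps AHR on the same strand, was at 0 in V and at 203 ± 11.9, 170 ± 17.6 and 85.5 ± 14.2 CPM in WT, SA and SD cells. Summed over both genes the level was 469 ± 16.4, 393 ± 18.8 and 296 ± 8.16 CPM, so the AHR lines differed in it. Epithelial markers were only partly present, with KRT8, KRT18 and CDH1 above 1 CPM in every library and EPCAM and KRT19 near 0. Their summed level was 6049 to 6302 CPM in V cells, and the WT, SA and SD cells had 4826 to 4859, 4663 to 4823 and 4398 to 4628 CPM. Of 9 alveolar type 2 markers, ABCA3 and NAPSA were above 1 CPM in every library. COL1A1 was the 1 of 5 fibroblast markers above that level and DCN was at 0, no endothelial marker reached it and VWF and KDR were at 0, and of the immune markers CD68 and CD14 were present while CD3E was at 0. The summed immune markers were at 33.0 to 41.0 CPM in V and 43.2 to 53.7 in the AHR lines, and the summed fibroblast markers at 10.3 to 13.5 and 5.59 to 9.35 CPM. The epithelial sum was nearly all KRT8 and KRT18, and the fibroblast sum nearly all COL1A1. Every other fibroblast marker was at most 0.536 CPM in any library, too low to be read. CDH1 was at 160 to 179 CPM in V and 103 to 132 CPM in the AHR lines. KRT8, KRT18 and CDH1, the epithelial markers above 1 CPM in every library, moved in the same direction as the 8 genes, as did COL1A1. Markers near 0 could not be read, so this does not speak for whole marker sets. The part of these markers in the differences below was not tested. In bulk RNA, fewer cells that express a gene and less RNA per cell cannot be told apart.

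NTS, the secreted peptide precursor, was measured at 21.8, 21.3 and 25.7 CPM in the 3 V libraries. It was at 5.46, 5.62 and 4.79 CPM in WT, 4.41, 3.33 and 4.06 in SA, and 3.70, 5.36 and 4.54 in SD cells. Every AHR line library was below every V library, with a wide gap, and the WT libraries lay above the SA libraries. The values rest on 201 to 244 counts in V and 37 to 64 in the AHR lines, so NTS has the widest relative counting error of the set. The mean was 22.9 ± 2.38 CPM in V and 5.29 ± 0.441, 3.93 ± 0.551 and 4.54 ± 0.829 CPM in WT, SA and SD cells, log2 fold changes of -2.11, -2.55 and -2.34.

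SVEP1, a large extracellular matrix protein with sushi domains that binds integrins, was at 68.7, 63.7 and 66.7 CPM in V. The WT libraries were at 27.9, 28.5 and 28.8 CPM, the SA libraries at 25.0, 26.3 and 26.0, and the SD libraries at 29.2, 25.9 and 25.8. The lines with AHR sat close together, with V clearly above them. The log2 fold changes against V were -1.22, -1.37 and -1.30 for WT, SA and SD.

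RTN4RL2, a lipid-anchored surface receptor of the Nogo receptor family, was at 121, 127 and 112 CPM in V. It was at 54.1, 53.6 and 62.5 CPM in WT, 49.1, 49.8 and 52.5 in SA, and 51.3, 49.3 and 58.9 in SD cells. The V libraries again lay above all others, the WT and SA libraries did not overlap, and the SD libraries spanned both. The log2 fold changes against V were -1.08, -1.25 and -1.17.

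SUSD2, a transmembrane sushi domain protein that binds galectin-1, was the most abundant of the 8 and had the smallest difference. It was at 729, 723 and 683 CPM in V, 506, 482 and 474 in WT, 557, 494 and 491 in SA, and 635, 573 and 564 in SD cells. All SD libraries were above all SA and WT libraries and below all V libraries. The mean kept 68.5% of the V level in WT, 72.2% in SA and 83.0% in SD cells, with log2 fold changes of -0.55, -0.47 and -0.27.

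CPLX2, a complexin that binds the SNARE complex and regulates vesicle exocytosis, was at 450, 395 and 405 CPM in V. It was at 166, 176 and 188 CPM in WT, 202, 191 and 191 in SA, and 153, 153 and 167 in SD cells. Here the SA libraries were the highest of the AHR lines and did not overlap with those of WT or SD cells. The mean was 416 ± 29.2 CPM in V and 177 ± 11.1, 195 ± 6.23 and 158 ± 8.07 CPM in WT, SA and SD cells, log2 fold changes of -1.24, -1.10 and -1.40.

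**Figure D1:**
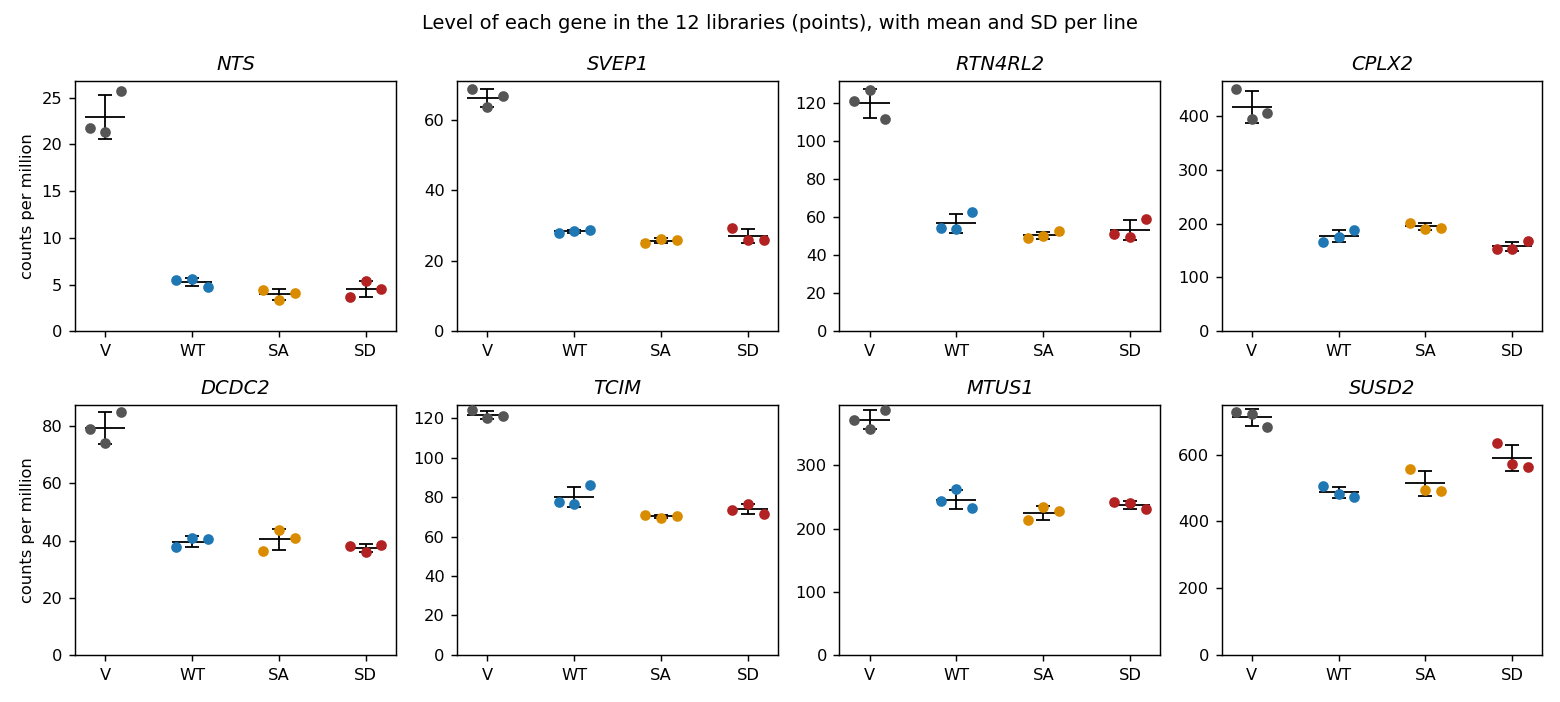
Level of the 8 genes in CPM after TMM scaling (vertical axes, starting at 0) in the 4 lines (horizontal axes). Points are single libraries, the bar is the mean of 3 libraries and the whiskers are 1 SD. In every panel the 9 libraries of the AHR lines lie below the 3 V libraries, by the widest gap relative to the V level for NTS and the narrowest for SUSD2, where the SD libraries are at 564 to 635 CPM and V at 683 to 729.

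DCDC2, a doublecortin domain protein that binds microtubules and is found in cilia, was at 79.0, 74.2 and 85.1 CPM in V. It was at 37.6, 40.8 and 40.6 CPM in WT, 36.5, 43.7 and 41.1 in SA, and 38.1, 35.9 and 38.6 in SD cells. The AHR lines overlapped one another throughout and lay below V. The log2 fold changes against V were -0.999, -0.972 and -1.08.

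MTUS1, a microtubule-associated protein with isoforms that bind the angiotensin receptor AGTR2, was at 372, 358 and 387 CPM in V, 243, 262 and 232 in WT, 213, 234 and 227 in SA, and 242, 241 and 230 in SD cells. The libraries of the AHR lines overlapped, and the highest of them stayed below the lowest V library. The log2 fold changes were -0.60, -0.73 and -0.64.

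TCIM, a small protein that binds Chibby and so relieves the block on beta-catenin, was at 124, 120 and 121 CPM in V. It was at 77.4, 76.6 and 86.1 CPM in WT, 70.9, 69.3 and 70.6 in SA, and 73.7, 76.5 and 71.7 in SD cells. All libraries of the 3 AHR lines were separate from one another in the order WT, SD, SA, with a narrow gap. The log2 fold changes were -0.61, -0.79 and -0.72.

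Scaled to the V mean, the single AHR line libraries held 14.5% to 24.5% for NTS, 37.6% to 44.1% for SVEP1, 41.0% to 52.2% for RTN4RL2 and 36.7% to 48.4% for CPLX2. They held 45.2% to 55.0% for DCDC2, 57.0% to 70.7% for TCIM, 57.2% to 70.3% for MTUS1 and 66.6% to 89.2% for SUSD2. The V libraries themselves ranged from 93.0% to 112% of their mean over the 8 genes.

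**Figure D2:**
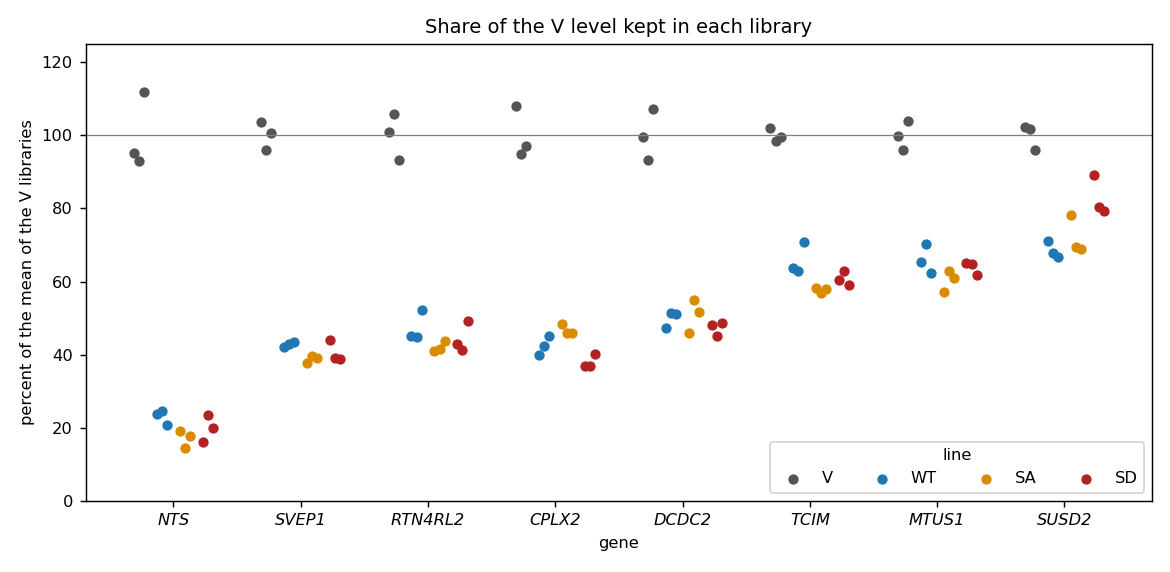
Each library as a percent of the mean of the 3 V libraries (vertical axis, starting at 0) for the 8 genes (horizontal axis), coloured by line. NTS keeps 14.5% to 24.5% in the AHR lines, SVEP1, RTN4RL2, CPLX2 and DCDC2 between 36.7% and 55.0%, TCIM and MTUS1 between 57.0% and 70.7%, and SUSD2 between 66.6% and 89.2%.

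Per length, in TPM (transcript levels scaled by union exon length and depth), the order of the levels in V cells was SUSD2 at 487 ± 13.3, TCIM at 230 ± 1.43, CPLX2 at 205 ± 10.9, RTN4RL2 at 172 ± 11.04, MTUS1 at 107 ± 4.81, DCDC2 at 54.9 ± 4.07, NTS at 51.0 ± 5.79 and SVEP1 at 16.2 ± 0.449 (mean ± SD, n = 3). DCDC2 and NTS, the neighbours in that order, differed by less than their spread. In WT cells NTS was at 11.9 ± 0.981 TPM against 27.8 ± 1.22 for DCDC2, so their levels were apart there, and SVEP1 at 7.03 ± 0.107 remained the lowest. SUSD2 stood at the 98.9th percentile of the tested genes in V cells and SVEP1 at the 48.5th. Union exon lengths can overstate the length of genes with many isoforms, such as MTUS1.

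As the choice of genes fixes, all 8 were lower with an adjusted p under 0.05 in each comparison with V (edgeR), where 2.93% of the 14772 genes tested were lower in WT, 3.29% of 14913 in SA and 2.49% of 14890 in SD cells. With 14571 genes measured well enough for all 3 comparisons, 1.3% (189) were called lower in each, and in 3.73% all 9 AHR line libraries lay below all 3 V libraries, as they did for the 8. Nothing is read from these counts. Ranked by the smallest of the 3 falls among the 189, NTS came 2nd, SVEP1 8th, CPLX2 12th, RTN4RL2 14th, DCDC2 19th, TCIM 49th, MTUS1 53rd and SUSD2 156th. The set is thus not the 8 deepest falls. In 18 of the 189 genes each log2 fold change was under -1, and 4 of these were NTS, SVEP1, CPLX2 and RTN4RL2. Just outside that value was DCDC2, with a smallest fall of -0.97. Under -2 in all 3 comparisons were NTS and HLA-DMB, a chaperone of MHC class II peptide loading, which was at 5.65 ± 0.559 CPM in V and 0.802 to 1.65 CPM in the AHR lines, with log2 fold changes of -2.20, -2.33 and -2.18.

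**Figure D3:**
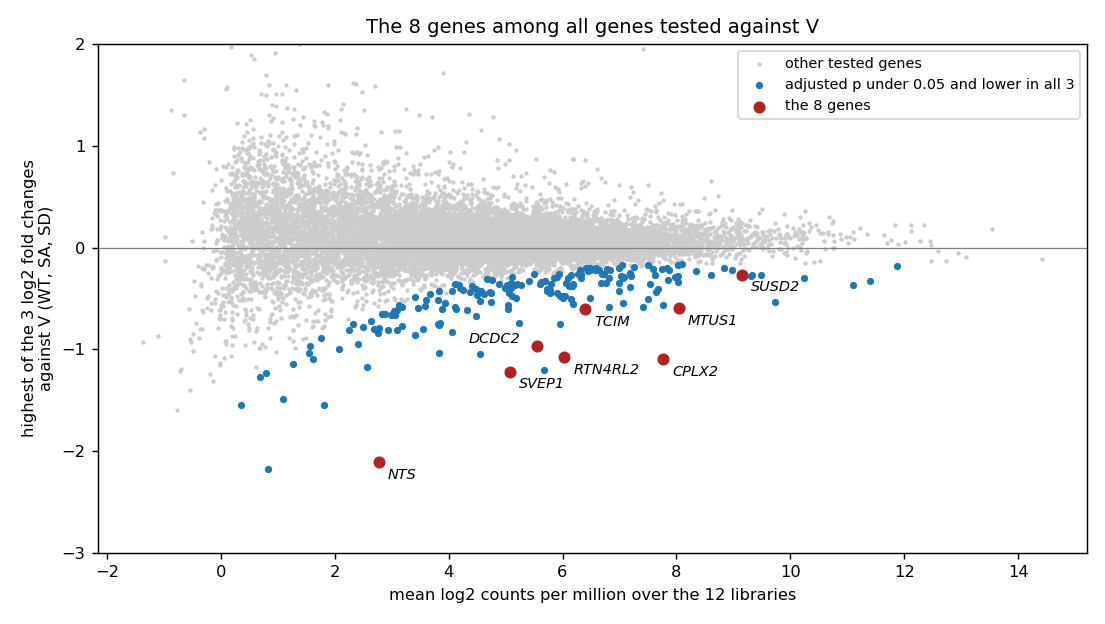
Genes tested in all 3 comparisons with V, by mean log2 CPM (horizontal axis) and by the highest of their 3 log2 fold changes against V (vertical axis, between -3 and 2, with 6 genes beyond it not drawn). Red points are the 8 genes, blue points the other genes lower in all 3 with an adjusted p under 0.05, and grey points the rest. NTS is the lowest red point at -2.11 and SUSD2 the highest at -0.27.

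The comparisons among the WT, SA and SD lines did not enter the choice of the genes and were tested with edgeR's quasi-likelihood test, adjusted over all genes. Between SD and WT cells, SUSD2 was higher in SD by a log2 fold change of 0.28 (SE 0.056, 95% interval 0.16 to 0.39, adjusted p = 0.0152), with all 3 SD libraries above all 3 WT libraries. It was the 1 gene of the 8 called, where 0.708% of all genes were called. Leaving out 1 library at a time, the call was lost without WT 1, WT 2, WT 3 or SD 2, with adjusted p of 0.0509, 0.0791, 0.129 and 0.0547. Under the other settings with all libraries it ranged from 1.1e-04 to 0.0145. CPLX2 was at -0.16 (95% interval -0.29 to -0.039, adjusted p = 0.277) in the same comparison.

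The level over AHR and ENSG00000283321 moved with these lines. AHR was lower in SD than in WT cells by a log2 fold change of -0.35 (adjusted p = 0.0077) and ENSG00000283321 by -1.25 (adjusted p = 2.6e-09). Against SA cells the SD values were -0.085 (adjusted p = 0.704) and -0.99 (adjusted p = 5.3e-06). The part of this level in the differences of SUSD2 and CPLX2 was not tested.

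Between SD and SA cells, CPLX2 was lower in SD by a log2 fold change of -0.30 (SE 0.059, 95% interval -0.42 to -0.18, adjusted p = 0.0295), and the libraries of the lines did not overlap. It was again the 1 gene of the 8 called, where 0.22% of all genes were called. The call was lost without SA 1, SA 2, SA 3, SD 1 or SD 2, with adjusted p of 0.0692, 0.163, 0.0940, 0.0724 and 0.225, and ranged from 9.6e-04 to 0.0301 under the other settings with all libraries. SUSD2 was at 0.20 (95% interval 0.070 to 0.33, adjusted p = 0.308) with no overlap between the lines, and TCIM at 0.073 (95% interval -0.065 to 0.21), also with no overlap.

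Between WT and SA cells none of the 8 was called, where 0.0803% of all genes (12) were. CPLX2, RTN4RL2, MTUS1 and TCIM had an unadjusted p under 0.05, 4 of 8 where 7.31% of all genes did, and their adjusted p values lay between 0.551 and 0.677. The largest value was that of NTS at 0.43 (95% interval -0.058 to 0.92), the widest interval of the set. The libraries of WT and SA cells did not overlap in 5 of the 8 (CPLX2 lower in WT, and RTN4RL2, SVEP1, TCIM and NTS higher in WT), against 12.8% of all genes. For SD against WT this held for SUSD2 and TCIM, 2 of 8 against 16% of all genes, and for SD against SA for 3 of 8 against 13.6%. An unadjusted p under 0.05 was seen for CPLX2 and SUSD2 in both of these comparisons, 2 of 8 against 10.6% and 8.52% of all genes.

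For the genes not called, the intervals bound what these libraries could have missed. Across the 3 comparisons, SVEP1, RTN4RL2, DCDC2, MTUS1 and TCIM had intervals within -0.29 and 0.33 on the log2 scale, whereas those of NTS ran from -0.70 to 0.92. The intervals cover 1 comparison each and are not adjusted. By their means, 5 genes (RTN4RL2, SVEP1, MTUS1, TCIM and NTS) were ordered WT above SD above SA, 2 (CPLX2 and DCDC2) SA above WT above SD, and SUSD2 SD above SA above WT.

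**Figure D4:**
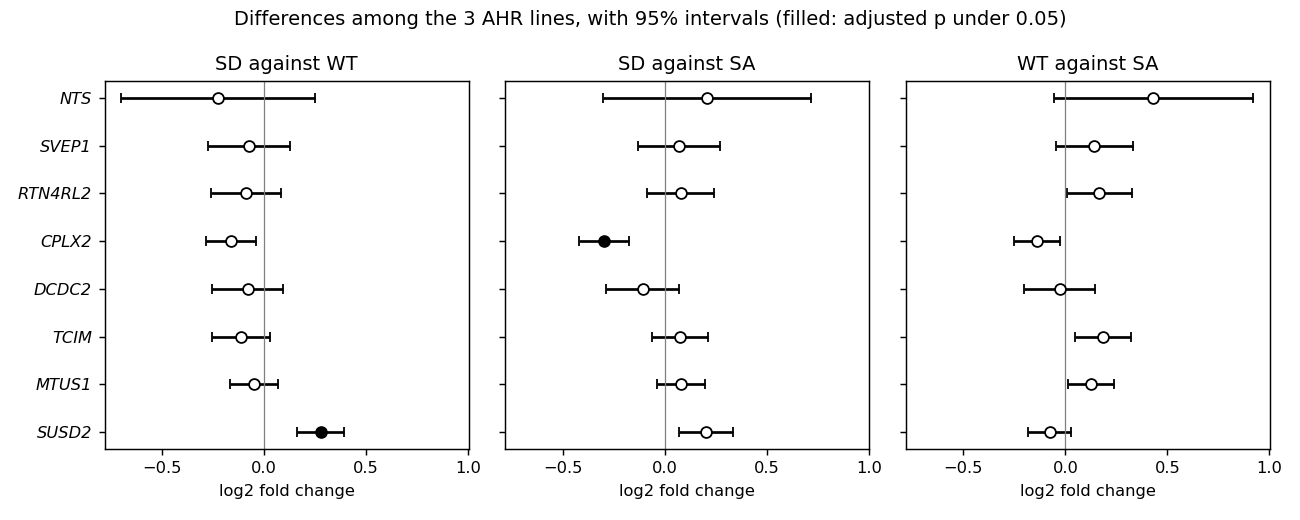
Log2 fold changes among the AHR lines (horizontal axes) for the 8 genes (vertical axis), with 95% intervals as whiskers. Filled points have an adjusted p under 0.05: SUSD2 in SD against WT at 0.28 and CPLX2 in SD against SA at -0.30. NTS has the widest intervals.

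Over the 12 libraries, each gene was compared with the mean standardised log2 CPM of the other 7. Pearson's r was 0.996 for SVEP1, 0.978 for RTN4RL2, 0.976 for NTS, 0.974 for TCIM, 0.972 for MTUS1, 0.971 for DCDC2, 0.954 for CPLX2 and 0.800 for SUSD2. These values largely restate the gap between V and the other lines that all 8 were chosen for. SUSD2 stood lowest, and its SD libraries lay between those of the other AHR lines and V. Of all genes tested, those most like the mean of the 8 were FGFR1 (r = 0.981), HEATR5A (0.975), PDE3A, GDF15 and TRIM6 (0.969 each). FGFR1, a fibroblast growth factor receptor, was at 257 ± 1.88 CPM in V and 175 to 194 in the AHR lines. PDE3A, a cyclic nucleotide phosphodiesterase, was at 99.4 ± 5.30 CPM in V and 35.4 to 47.9, and GDF15, a secreted stress-induced cytokine, at 99.0 ± 2.82 and 61.0 to 71.4.

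The other genes of each protein's pathway were followed in lists of partners and relatives, 101 genes in all. Of the 56 to 58 with enough counts, 3 changed in WT (5.36%, against 5.24% of all genes), 6 in SA (10.5%, against 7.17%) and 3 in SD cells (5.17%, against 5.41%) at an adjusted p under 0.05 against V. The shares in WT and SD cells are near the background, the count in SA cells was 3 without V 1 or without V 3, and the count in SD cells was 5 without SD 1. The median log2 fold changes of 0.030, -0.0035 and -0.013 lay close to those of all genes at 0.0018, -0.0024 and 0.0030. None of the 58 to 59 was called in a comparison among the AHR lines.

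For NTS, 5 of 10 receptor, sorting and protease genes were tested and none was called in any comparison. The receptors NTSR1 and NTSR2 averaged at most 0.313 CPM in each line. The processing enzyme PCSK1, a prohormone convertase, was at 1.55 CPM in V and 2.86 in SD cells (adjusted p = 0.250). SORT1, a sorting receptor that also binds neurotensin, was at 40.5 CPM in V and 38.5, 36.8 and 35.0 in the AHR lines, with adjusted p values of 0.711, 0.365 and 0.205. Of 15 neuroendocrine genes 5 were tested, and SCG2, a granin, rose in SD cells (log2 fold change 1.59, adjusted p = 0.0049, from 1.03 to 1.49 CPM in V to 3.00 to 4.19), while CHGA and INSM1 averaged under 1 CPM in each line. UCHL1, ENO2, SYP and CHGB, the other tested genes of this list, were not called in any comparison. Their means in V cells were 389, 84.0, 5.39 and 1.68 CPM. SCG2 was also higher in WT and SA cells, by 0.84 and 0.89, but was not called there (adjusted p = 0.273 and 0.176). It thus moved in the direction opposite to NTS, at a low level.

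For CPLX2, 20 of 23 complexin and SNARE genes were tested. VAMP1 fell in WT (log2 fold change -0.37, adjusted p = 0.0253), SNAP25 fell in SA (-0.50, adjusted p = 0.0092) and STX4 rose in SA (0.26, adjusted p = 0.0465), and none was called in SD cells. CPLX1, the nearest relative, averaged under 1 CPM in each line. In the Nogo receptor list RTN4, which encodes Nogo, rose in SA cells by 0.19 (adjusted p = 0.0111). RTN4R, the founding receptor, was not called at 6.74 CPM in V and 8.36, 8.91 and 5.80 in WT, SA and SD cells. In the list for SVEP1, PEAR1, a receptor of SVEP1, rose in SA cells by 0.82 (adjusted p = 0.0219), ITGB1 was not called, and ITGA9 averaged under 1 CPM in each line.

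For SUSD2, 3 or 4 of 6 genes were tested, and LGALS1, which encodes galectin-1, was higher in every AHR line. It was at 271, 275 and 261 CPM in V, and between 311 and 356 in the AHR lines without overlap. Its log2 fold changes were 0.35, 0.36 and 0.30 (adjusted p = 5.3e-06, 8.5e-06 and 0.0011), the direction opposite to SUSD2. For TCIM, 10 of 13 beta-catenin genes were tested and DKK1, a secreted Wnt antagonist, fell in all 3 lines. DKK1 was at 316, 293 and 314 CPM in V and 178 to 218 in the AHR lines, with log2 fold changes of -0.71, -0.75 and -0.56 (adjusted p = 1.7e-11, 4.1e-11 and 1.2e-07). No other gene of this list was called, among them AXIN2, NKD1, MYC and CCND1. LEF1, LGR5 and NOTUM had too few counts to be tested, so no reading of the pathway as a whole is made. The lists for DCDC2 (3 of 9 tested) and MTUS1 (5 of 10 tested) had no called gene, and AGTR2, the receptor that MTUS1 isoforms bind, averaged at most 0.029 CPM.

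The genes nearest to each of the 8 on the chromosome, at any distance, were examined as measurements that the choice did not use. Of 48 neighbours (the 3 nearest tested genes on each side), 7 were lower in WT (14.6%, against 2.93% of all genes), 7 in SA (14.6%, against 3.29%) and 6 in SD cells (12.5%, against 2.49%). Higher were 2, 3 and 4 of the 48 in WT, SA and SD cells, where 2.31%, 3.88% and 2.92% of all genes were higher. Neighbours share a region and 3 of them overlap a gene of the set, so they are not independent. The neighbours of MTUS1 made up 4, 5 and 3 of these. Without them the counts were 3, 2 and 3 of 42 (7.14%, 4.76% and 7.14%). These were RASSF9 beside NTS, ENSG00000255301, which overlaps RTN4RL2, and, in WT and SD cells, KAAG1, which overlaps DCDC2. Of these, RASSF9 alone overlaps no gene of the set, so these shares rest largely on the overlaps.

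MTUS1 lies on chromosome 8 (17643795 to 17800917, minus strand, GRCh38). FGL1, which encodes a fibrinogen-like secreted protein, has its start 220585 bases from that of MTUS1 and fell by log2 fold changes of -0.98, -1.21 and -0.80 in WT, SA and SD cells (adjusted p = 6.7e-06, 2.4e-06 and 3.5e-04), more than MTUS1 itself in each line. Its neighbour ENSG00000253671, the nearest gene on that side, fell by -0.65, -1.06 and -0.76 (adjusted p = 0.0273, 4.3e-04 and 0.0156). PCM1, a centriolar satellite protein gene, fell by -0.17, -0.21 and -0.28 (adjusted p = 0.0381, 0.0113 and 0.0042). On the other side SLC7A2, a cationic amino acid transporter gene, fell by -0.51 in WT and -0.53 in SA cells (adjusted p = 3.6e-04 and 7.1e-04) and was at -0.30 in SD cells (adjusted p = 0.0557). PDGFRL, which overlaps the end of MTUS1 on the opposite strand, was called in SA cells at -0.40 (adjusted p = 0.0405) and not in WT or SD cells, at -0.18 and -0.092. MTMR7, further out on the side of SLC7A2, was not called in any line, at -0.014, 0.074 and 0.23 in WT, SA and SD cells. Lower levels at this locus were not limited to MTUS1 but did not include every neighbour, and their extent differed from gene to gene.

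NTS lies on chromosome 12 (85874295 to 85882992, plus strand). RASSF9, which encodes a protein of recycling endosomes and is the nearest tested gene on its lower-coordinate side, fell by log2 fold changes of -0.77, -1.08 and -0.88 (adjusted p = 0.0022, 6.4e-05 and 9.3e-04). Its level was 13.2, 17.1 and 13.3 CPM in V and 6.53 to 9.02 in the AHR lines. The nearest tested gene on the other side, C12orf29, starts 2159551 bases away and was not called.

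RTN4RL2 lies on chromosome 11 (57460528 to 57477534, plus strand) and its end overlaps ENSG00000255301 on the opposite strand, which fell by -0.90, -1.02 and -0.81 (adjusted p = 0.0014, 3.9e-04 and 0.0041). DCDC2 lies on chromosome 6 (24171755 to 24358059, minus strand) and its start overlaps KAAG1 on the opposite strand, which fell in WT and SD cells by -1.12 and -0.93 (adjusted p = 2.4e-04 and 0.0017) and was at -0.57 in SA cells (adjusted p = 0.0747). Whether the counting used strand is not given in the sources used here, so reads of these overlapping pairs cannot be told apart and the falls are uncertain as separate measurements. The next genes on that side, SLC43A1 beside RTN4RL2 and MRS2 beside DCDC2, were not called in any line.

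CPLX2 on chromosome 5 (175796310 to 175884021, plus strand) had no called neighbour, and the nearest, HRH2 and THOC3, were at -0.041, -0.51 and -0.94 and at -0.096, 0.028 and -0.042 in WT, SA and SD cells. HRH2 rests on a mean of 3.71 CPM in V and 1.92 in SD cells. Beside SVEP1 on chromosome 9 (110365248 to 110579880, minus strand), TXN and LPAR1 were not called, and PALM2-AKAP2, the next gene after TXN, rose in all 3 lines by 0.46, 0.47 and 0.37 (adjusted p = 1.6e-04, 8.2e-05 and 0.0043), the direction opposite to SVEP1. Near SUSD2 on chromosome 22 (24181487 to 24189106, plus strand), CABIN1 was not called and GGT5 rose in SA and SD cells by 0.40 and 0.53 (adjusted p = 0.0357 and 0.0089), as did POM121L9P, the next gene, in SD cells by 0.79 (adjusted p = 0.0353). TCIM (chromosome 8, 40153482 to 40155310, plus strand) had no tested gene close by, with ADAM32 and SFRP1 the nearest at start distances of -1046492 and 1108480 bases. ADAM32 was not called. SFRP1, a secreted Wnt antagonist, rose by 0.49, 0.60 and 0.50 (adjusted p = 1.0e-05, 5.6e-07 and 3.1e-05), the direction opposite to TCIM.

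**Figure D5:**
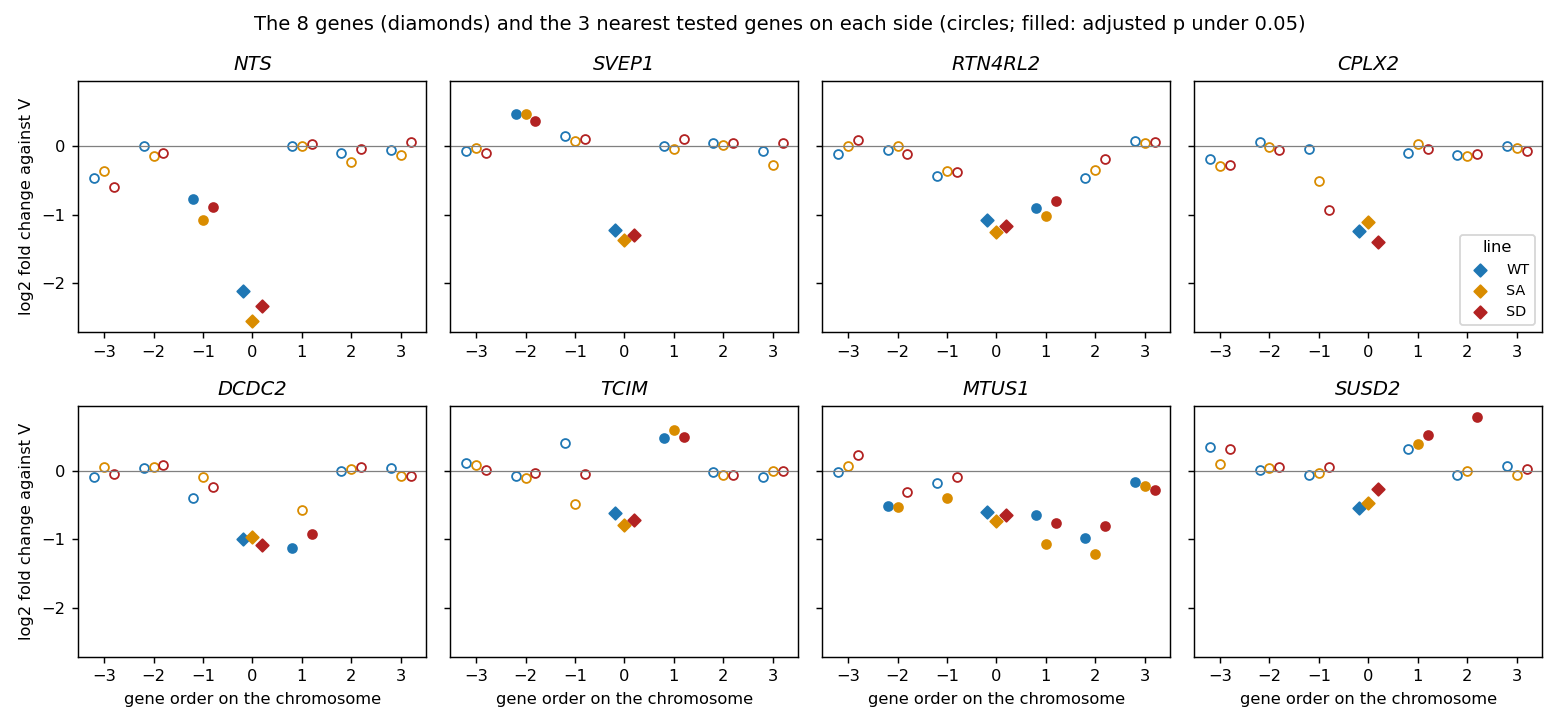
Log2 fold changes against V (vertical axes) of the 8 genes, drawn as diamonds at 0, and of the 3 nearest tested genes on each side in order along the chromosome (horizontal axes, negative towards lower coordinates). Colours give the AHR line and filled circles an adjusted p under 0.05. Lower neighbours cluster beside MTUS1, with 4, 5 and 3 of 6 called lower in WT, SA and SD, and none is called beside CPLX2.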

How the data were processed

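Poly(A)-enriched RNA-seq of 12 A549 libraries, 3 per line, was used. The deposited values are expected counts per gene: per the labels and the study's methods, the authors trimmed reads with Trimmomatic 0.39 and counted them with RSEM on GRCh38 transcripts. Whether counting used strand, and the annotation release, are not given in the sources used here. Of the values, 3.24% to 3.61% per library were not whole, and none of the 8 genes' values was among them. A second deposited table holds only the authors' own fold changes, p-values and q-values and was not used.

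Expected counts were rounded and tested in R 4.3.3 with edgeR 4.0.16 (TMM, filterByExpr with a minimum count of 10, quasi-likelihood test), each pair of lines fitted on its 6 libraries, with Benjamini-Hochberg adjustment over all genes tested. Intervals are the log2 fold change ± the t quantile times the SE. DESeq2 1.42.0, other filters, 1 fit of all 12 libraries, a replicate block and leaving out each library were alternatives. Replicate numbers do not pair the libraries: same-number deviations correlated by -0.065 to 0.11. TPM used GENCODE 44 union exon lengths (60295 of 60623 genes). Promoters are from RefSeq. The test was tested on simulated counts.

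Named are the 8 genes, AHR with its overlapping gene, list genes called in all 3 comparisons with V, neighbours called lower in all 3 or nearest on a side, overlapping genes, and the most similar genes. List genes called in 1 comparison, and other list genes and neighbours given with values, were named after their values were seen. The 8 genes, lists and tests were chosen with earlier results of these data known. Replicates are libraries of 1 line, so p-values measure the spread between these libraries.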

Additional observations from a re-analysis of the deposited data

Results flagged for a closer look

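Differences among the AHR lines, which share a contrast with V, passed a test of the difference itself for 2 of the 8 genes. SUSD2 was higher in SD than in WT cells by a log2 fold change of 0.28 (edgeR adjusted p = 0.0152), in 3 of 3 SD libraries against every WT library, where 0.708% of all genes were called and 16% did not overlap. The call was lost in 4 of the 6 fits that left out 1 library. CPLX2 was lower in SD than in SA cells by a log2 fold change of -0.30 (edgeR adjusted p = 0.0295), in 3 of 3 SD libraries against every SA library, where 0.22% of all genes were called and 13.6% did not overlap. The call was lost in 5 of the 6 fits that left out 1 library. Groups of 3 libraries are too small for a test of single outlying libraries.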

How the results depend on the processing

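No log2 fold change of the 8 genes changed direction under any alternative that kept all libraries (335 values kept their side of the threshold and 1 passed it). Leaving out 1 library turned the sign of values near 0: DCDC2 in WT against SA (-0.094 to 0.033, with 0.0079 without WT 1 and 0.033 without SA 2), MTUS1 in SD against WT (-0.090 to 7.8e-04, the latter without WT 2) and RTN4RL2 in SD against SA (-0.0030 to 0.13, the former without SD 3). With each library left out, the number of the 8 genes called was 0 to 1 for SD against WT and 0 to 1 for SD against SA. Lists of partner genes gave 1 called gene in SD against SA, SD against WT and WT against SA with every gene of at least 1 count, and 1 in SD against WT with all 12 libraries in 1 fit. With each library left out they gave 3 to 7 in SA, 3 to 5 in SD and 2 to 3 in WT against V, and 0 to 1 in SD against SA, with 3 in SA without V 1 or V 3, 5 in SD without SD 1, and 1 in SD against SA without SD 3.

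The replicate block, for numbers that do not pair the libraries, gave 2 of the 8 genes in SD against SA (SUSD2 with an edgeR adjusted p of 0.0036 joined CPLX2) and 2 partner genes in SD against WT. It moved the genes called from 774 to 507 in WT, 1069 to 1345 in SA and 806 to 664 in SD against V, and from 105 to 245, 33 to 165 and 12 to 25 in SD against WT, SD against SA and WT against SA. With every gene of at least 1 count these last 3 were 252, 153 and 103, WT against SA gave 18 with DESeq2 and 5 with all 12 libraries in 1 fit, and the cause was not tested.

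The number of genes lower than in V ranged, with each library left out, from 249 to 386 in WT (433 with all), 302 to 554 in SA (490) and 233 to 408 in SD (371), where fewer samples were fitted. It fell by over 1.5 times without V 1 or WT 3 (249 and 284 in WT), V 1, V 3 or SA 3 (302, 321 and 306 in SA), and V 1, V 2, V 3 or SD 2 (239, 243, 240 and 233 in SD). Depth limits NTS most, at 37 to 64 counts per AHR line library.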
